A study of Homo sapiens with 4 samples.

Results

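The genes described here are 9 inflammatory genes: CXCL8, CXCL1, CXCL3 and CXCL2, which lie in the CXCL chemokine cluster on chromosome 4, and the single genes IL6, IL1B, LIF, NFKBIA and TNFAIP3. Their members are the genomic regions marked by H3K27ac, the acetylation of a lysine of histone H3 found at active promoters and enhancers, that the authors' deposited table assigned to 1 of these genes. This gave 82 distinct regions of the 91107 in the table, 30 beside the 4 CXCL genes and 52 beside the 5 single genes, and none was also assigned to another gene. Chromatin was immunoprecipitated and sequenced from A375, an established human melanoma cell line grown in serum-containing medium. Per the labels, 2 libraries came from vehicle cells, which received isopropanol, and 2 from cells that received 1 mM octanoate, the anion of a medium-chain fatty acid, in both cases over 48 hours. The labels do not say whether the libraries of a group came from separate cultures. The question in the series title is how medium-chain fatty acids alter chromatin in these cells.

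The authors' deposited table combines the 4 libraries into 1 comparison. It gives each region a mean level, a log2 fold change with a standard error and p-values, but no value per library, so the depth is unknown and the spread between replicates cannot be shown. Its header does not name the numerator of the fold change. Values are therefore called positive or negative, and a positive value is not read as more acetylation under either treatment. Errors are the standard errors (SE) of the authors' model, mean levels are in the authors' normalized units, and coordinates are as in the table, with the build hg38 per the submitters' processing notes. The melanoma label was checked against fixed markers. Of 8 genes of the melanocyte and neural crest lineage, 4 (SOX10, MITF, PMEL and S100B) had a region at their start in the authors' deposited table, with mean levels from 55.2 to 774, and MLANA, TYR, DCT and TYRP1 had none. No start region was listed for any of 4 leukocyte or 2 endothelial markers, and of 4 epithelial markers EPCAM alone had one, at a mean level of 50.5.

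As background, NF-kappaB is a family of transcription factors held in the cytoplasm by inhibitor proteins and released when receptors for cytokines or microbial products fire. In the nucleus it switches on chemokine and cytokine genes together with genes that shut the response off again. CXCL1, CXCL2, CXCL3 and CXCL8 encode small secreted chemokines that draw neutrophils through a shared receptor, and melanoma cells are known to secrete several of them. IL6, IL1B and LIF encode cytokines, NFKBIA encodes an inhibitor that retains NF-kappaB in the cytoplasm, and TNFAIP3 encodes a ubiquitin-editing enzyme that dampens the signal.

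The stretches before the starts of 8 of these genes are shown first, because the H3K27ac regions reported next lie over all or part of them and because CXCL1, CXCL2 and CXCL3 are close copies whose reads can be hard to place. Each is the 160 bases that end 1 base before the transcription start, 5′ to 3′ on the strand of the gene, from RefSeq promoters of GRCh38.p14, in which 8 of the 9 genes had an entry; LIF had none. Capitals mark matches, on either strand, to the kappaB consensus, to the shorter NF-kappaB-like string GGNNTTTCC, to the AP-1 string TGANTCA, to the C/EBP string TTGCNNAA or to TATAAA; the IL1B stretch holds none of them.
CXCL8 (chr4:73740409-73740568, plus strand): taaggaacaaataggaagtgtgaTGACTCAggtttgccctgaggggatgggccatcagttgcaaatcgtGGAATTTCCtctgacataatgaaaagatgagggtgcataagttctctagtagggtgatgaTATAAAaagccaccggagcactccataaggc
CXCL1 (chr4:73869233-73869392, plus strand): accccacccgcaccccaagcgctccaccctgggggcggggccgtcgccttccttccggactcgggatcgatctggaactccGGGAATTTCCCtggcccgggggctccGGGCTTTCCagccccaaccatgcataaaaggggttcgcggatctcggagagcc
CXCL3 (chr4:74038690-74038849, minus strand): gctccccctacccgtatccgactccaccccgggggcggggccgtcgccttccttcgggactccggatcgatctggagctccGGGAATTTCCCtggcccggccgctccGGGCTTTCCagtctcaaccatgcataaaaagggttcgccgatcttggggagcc
CXCL2 (chr4:74099196-74099355, minus strand): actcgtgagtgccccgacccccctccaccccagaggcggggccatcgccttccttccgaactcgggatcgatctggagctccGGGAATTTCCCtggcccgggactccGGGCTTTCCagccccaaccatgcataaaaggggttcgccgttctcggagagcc
IL6 (chr7:22727040-22727199, plus strand): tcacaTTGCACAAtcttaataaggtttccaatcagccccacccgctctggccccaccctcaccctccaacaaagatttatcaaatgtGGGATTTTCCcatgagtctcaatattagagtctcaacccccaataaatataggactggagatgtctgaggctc
IL1B (chr2:112836780-112836939, minus strand): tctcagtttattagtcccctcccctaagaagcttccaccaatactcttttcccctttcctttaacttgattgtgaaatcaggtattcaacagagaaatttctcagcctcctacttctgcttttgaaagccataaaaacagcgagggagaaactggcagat
NFKBIA (chr14:35404750-35404909, minus strand): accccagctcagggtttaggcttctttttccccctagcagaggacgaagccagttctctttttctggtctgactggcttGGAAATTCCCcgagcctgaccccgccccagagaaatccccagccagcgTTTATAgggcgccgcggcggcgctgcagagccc
TNFAIP3 (chr6:137867099-137867258, plus strand): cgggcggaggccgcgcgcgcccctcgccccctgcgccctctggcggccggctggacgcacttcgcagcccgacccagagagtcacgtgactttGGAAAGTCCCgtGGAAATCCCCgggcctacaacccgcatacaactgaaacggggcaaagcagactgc

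The CXCL1, CXCL2 and CXCL3 promoters were close copies. Over these 160 bases, CXCL1 shared 85.7% of aligned positions with CXCL3 and 85.8% with CXCL2, and CXCL3 shared 83.2% with CXCL2, whereas CXCL8 shared 42.5 to 44.5% with the 3. How the authors placed reads that fit more than 1 copy is not given in the sources used here, so values at CXCL1, CXCL2 and CXCL3 carry that uncertainty. In full windows of 300 bases, from 250 before the start to 50 after it, the kappaB consensus was found in 6 of the 8 promoters, those of CXCL1, CXCL2, CXCL3, IL6, NFKBIA and TNFAIP3, and in 5.9% of all 34943 promoters. The shorter string GGNNTTTCC overlaps the consensus and was found in 7 of 8, with CXCL8 added, against 6.25% of all promoters. In CXCL1, CXCL2 and CXCL3 the consensus began 79, 78 and 79 bases before the start, and a second copy of the shorter string began 53 bases before it in each. The AP-1 string was found in CXCL8 alone, 137 bases before the start, against 7.72% of all promoters. The C/EBP string was found in CXCL2, IL1B and IL6 (10.5% of all promoters), and TATAAA in CXCL8 and NFKBIA (11.6%). These matches are letters in a window and were not tested for binding.

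CXCL3 was the member gene with regions past the threshold chosen here, a deposited adjusted p-value under 0.05. Regions past it are named calls, and a threshold of the authors is not given in the sources used here. The authors' deposited table holds a computed adjusted p-value for 36 of the 82 member regions; the other 46, with mean levels too low for the authors' adjustment, carried the value 1 in its place. Of the 36, 2 passed (5.56%), both positive and both beside CXCL3, against 1.67% of all 36436 regions adjusted in the table in either direction and 1.65% in the positive one. The count of 2 is small, and members of a cluster are not independent of each other. The members were also chosen with earlier results of these data known. At an unadjusted p-value under 0.05, 10 of the 36 regions passed (27.8%), all positive, against 18.4% of all adjusted regions, and 12 of the 82 did (14.6%) against 8.99% of all regions of the table.

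Positive values prevailed throughout the table, and the members shared in that. The authors' deposited table gave 72 of the 82 member regions a positive log2 fold change (87.8%, 95% Wilson interval 79.0 to 93.2%), against 73.7% of all regions, and 33 of the 36 adjusted regions one, against 87.3%. The median log2 fold change of the 82 regions was 0.43 (95% interval over regions 0.37 to 0.55), beside 0.28 for all regions of the authors' deposited table. Restricted to adjusted regions, the medians were 0.42 for the members and 0.32 for all, and 26 of the 36 members lay above the latter. These intervals treat regions as independent and hold no error between libraries. By gene, the median over all its regions of the authors' deposited table was highest for CXCL3 (1.05, 6 regions) and CXCL2 (0.85, 4 regions). It was 0.48 for TNFAIP3 (14), 0.45 for IL1B (7) and 0.43 for LIF (16), and lay between 0.37 and 0.39 for IL6 (8), CXCL1 (9), NFKBIA (7) and CXCL8 (11). Over adjusted regions alone, CXCL3 stayed highest (1.05, 2 regions), and CXCL2 (0.60, 2) and IL6 (0.59, 4) were close. The other genes then lay between 0.32 and 0.48, so the order below CXCL3 depended on regions of low level. The 46 regions without an adjusted p-value had mean levels from 1.86 to 17.9 and a median standard error of 0.75, and ran from -0.37 to 2.70 in the authors' deposited table. When the common median of 0.32 was subtracted from every region of the authors' deposited table, 0 of the member regions passed, beside 0.124% of all adjusted regions.

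**Figure D1:**
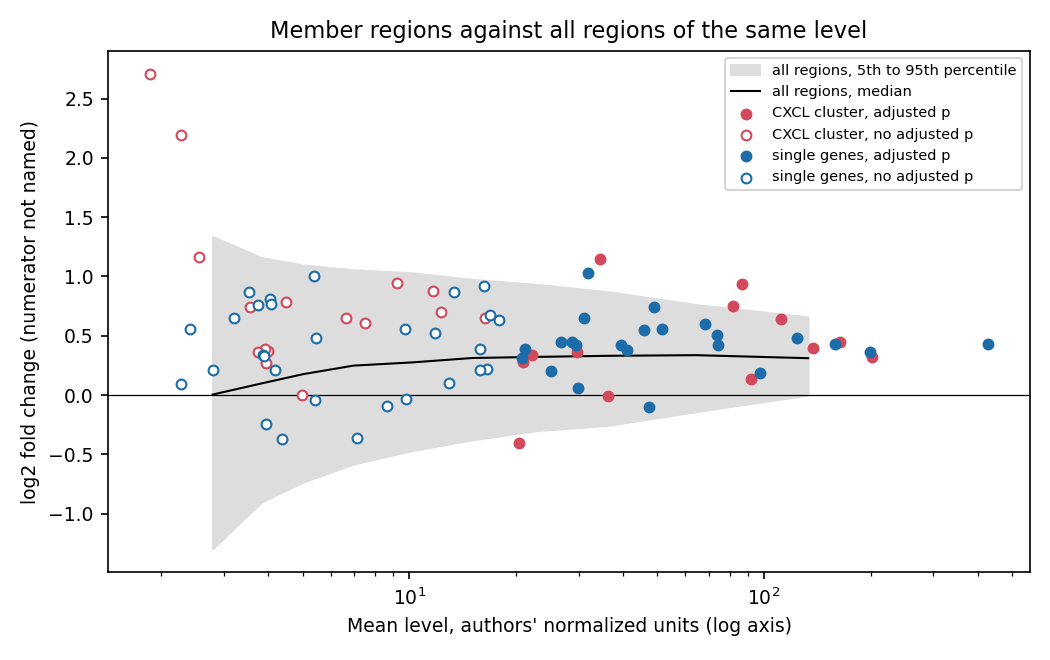
Mean level of each region in the authors' normalized units (log axis) against the log2 fold change the authors' deposited table gives it, for 30 CXCL cluster regions and 52 regions of single genes; filled points have an adjusted p-value. The grey band spans the 5th to 95th percentile and the line the median of all regions in 10 bins by level. Most member regions sit inside the band and above the line, and the widest scatter is among regions of low level, where a CXCL3 region at a mean level of 1.86 has a log2 fold change of 2.70.

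The start regions of the 9 genes were compared next, since promoters lie there. For 8 genes the authors' deposited table listed a region at a distance of 0, read as overlap with the start; for IL1B the nearest region was listed at 57 bases. The 8 regions at a distance of 0 all had a log2 fold change above 0.35, the median of the 9996 regions at starts with an adjusted p-value in the table, and 1 of the 8 passed the threshold, where 0.86% of the regions at starts did. In order, the values of the authors' deposited table were, on the log2 scale, 0.94 ± 0.27 (SE) at CXCL3, 0.75 ± 0.28 at CXCL2, 0.74 ± 0.27 at IL6 and 0.64 ± 0.24 at CXCL1. They went on with 0.55 ± 0.31 at TNFAIP3, 0.43 ± 0.21 at LIF, 0.42 ± 0.25 at NFKBIA, 0.42 ± 0.30 at IL1B and 0.37 ± 0.34 at CXCL8. No neighbours in this order differed beyond their errors. Of the 36 pairs of start regions, 0 had a difference whose 95% interval left out 0. The widest, CXCL3 against CXCL8, was 0.58 with an interval from -0.26 to 1.41, which leaves room for differences of up to 1.41. The smallest p-value over the 36 pairs was 0.132 (two-sided normal, from the authors' standard errors) and 0.995 after Benjamini-Hochberg adjustment. The errors of each pair were combined as if independent, though all regions were measured in the same libraries. The 36 pairs also reuse the values of the same 9 regions.

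**Figure D2:**
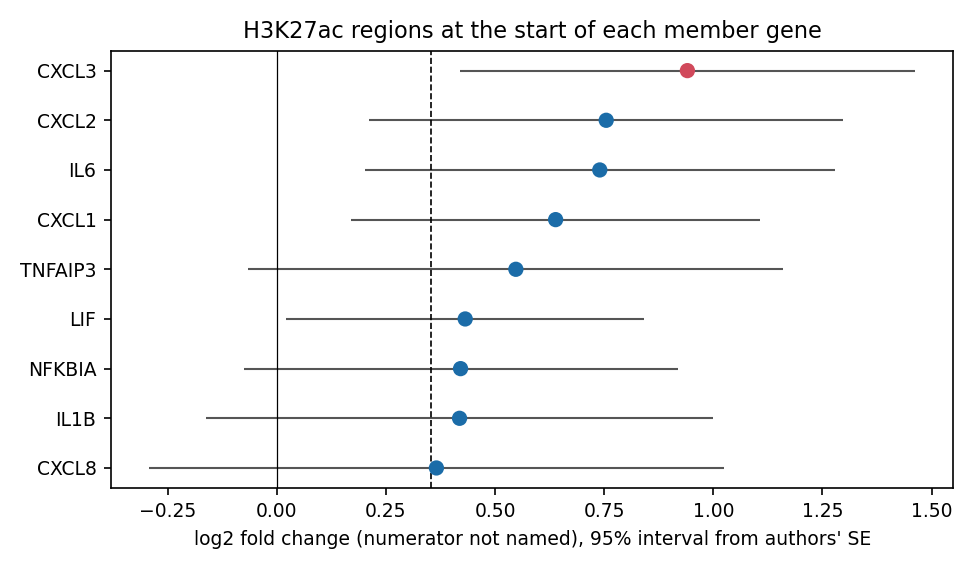
Log2 fold change from the authors' deposited table (x axis) of the region at the start of each of the 9 genes, with 95% intervals from the authors' standard errors. Red marks an adjusted p-value under 0.05. The dashed line is the median of 0.35 of all regions at starts that have an adjusted p-value. CXCL3 is highest at 0.94 and CXCL8 lowest at 0.37, and all 9 intervals overlap.

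These were modest H3K27ac regions for gene starts by level per kilobase, though near the middle by total level. The total mean level of the 8 had a median of 78.1, beside 83.7 for all 10642 regions at starts. The mean level per kilobase of width was below 25.8 in all 8 in the authors' deposited table. That value is the median of the 9996 regions at starts with an adjusted p-value. The level per kilobase was highest at CXCL2 (24.6), followed by LIF (22.9), CXCL3 (22.1), NFKBIA (19.3), CXCL1 (19.1), TNFAIP3 (17.7) and IL6 (16.9). It was lowest at CXCL8 (13.5). Among the same 9996 regions, the CXCL2 start stood at percentile 43.1 and the CXCL8 start at percentile 1.75. LIF stood apart by width: its start region covered 18637 bases, percentile 99.4 of the same regions by width, at a total mean level of 428. The other 7 covered 2198 to 5825 bases. The CXCL8 region began 130 bases before the start and so did not reach the AP-1 match in its promoter, the IL1B region began 68 bases before the start and covered only that part of its stretch, while the CXCL1, CXCL2, CXCL3, IL6, NFKBIA and TNFAIP3 regions covered their printed stretches whole.

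The CXCL cluster was read along the chromosome. CXCL3 carried both called regions. The first lay over its start (chr4:74036470-74040390), with a log2 fold change of 0.94 ± 0.27 (SE), a ratio of 1.92, at a mean level of 86.6 and adjusted p = 0.0352 in the authors' deposited table. The second (chr4:74055120-74058615) lay 16431 bases before the start, between CXCL3 and CXCL2, with 1.15 ± 0.32, a ratio of 2.22, a mean level of 34.6 and adjusted p = 0.0298 in the authors' deposited table. By unadjusted p-value they ranked 423 and 352 among the 36436 adjusted regions. Both lost the call under adjustment of the deposited p-values over all 91107 regions (0.0867 and 0.0735) and when the common median was subtracted (0.679 and 0.511). How many of all calls were kept under the first of these was not counted, and after the subtraction 0.124% of all adjusted regions were calls. The other 4 CXCL3 regions had mean levels of at most 11.7, and the authors' deposited table gives them log2 fold changes between 0.74 ± 0.83 and 2.70 ± 1.29, errors too wide to set them apart from the rest.

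CXCL2 lies next to CXCL3 and its 4 regions were all positive. The start region (chr4:74097024-74100356) had a log2 fold change of 0.75 ± 0.28 (SE) and adjusted p = 0.129 in the authors' deposited table. The broad region of 10947 bases that begins 8446 bases before the start had 0.44 ± 0.22 at a mean level of 164, with adjusted p = 0.253 in the authors' deposited table. With its standard error, the CXCL2 start would have needed a log2 fold change of 0.93 to be called, since the smallest score among all calls was 3.34.

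CXCL1 and CXCL8, at the other side of the cluster, had no call. Their adjusted regions, 2 and 7, were too few to set beside the 1.67% called among all adjusted regions. The CXCL1 start region (chr4:73867310-73873135) had 0.64 ± 0.24 (SE) at a mean level of 112, with adjusted p = 0.139 in the authors' deposited table. Of the other 8 CXCL1 regions, 7 had no adjusted p-value, and all 8 lay between -0.0033 and 0.78 on the log2 scale in the authors' deposited table. CXCL8 had the most regions of the 4 genes, 11, of which 10 lay before or over its start. Its strongest regions were broad and away from the promoter. One of 10125 bases at 29180 bases from the start had a mean level of 202 and a log2 fold change of 0.32 ± 0.23, and one of 11207 bases at 9187 bases a mean level of 138 and 0.39 ± 0.22 in the authors' deposited table. The start itself (chr4:73740439-73742637) had a mean level of 29.6 and 0.37 ± 0.34, with adjusted p = 0.505. The lowest value among adjusted member regions, -0.40 ± 0.37, was that of a CXCL8 region 52449 bases away, with adjusted p = 0.508 in the authors' deposited table.

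Over all 30 regions of the 4 genes, the median of the authors' deposited table was, on the log2 scale, 0.53 (95% interval over regions 0.37 to 0.74), and 0.37 over the 13 with an adjusted p-value. Taken by position instead, the span from the first CXCL8 region to the last CXCL2 region (chr4:73678006-74118686) held 38 regions, 8 of them assigned to CXCL6, PF4 or CXCL5, neighbouring genes for CXC chemokines. The longest gap without a region, 59.6 kb, fell between the PF4 region and the CXCL5 regions. On the CXCL8, CXCL6 and CXCL1 side of this gap, the 13 regions with an adjusted p-value ran around a median log2 fold change of 0.28, between -0.40 and 0.64 in the authors' deposited table, with 0 calls (1 at an unadjusted p-value under 0.05). On the CXCL5, CXCL3 and CXCL2 side, the 6 adjusted regions lay between 0.44 and 1.15 with a median of 0.87 in the authors' deposited table. Of these, 3 were calls and all 6 had an unadjusted p-value under 0.05. Of all adjusted regions, 1.67% were calls and 18.4% had an unadjusted p-value under 0.05. A count of 0 calls among 13 regions is therefore near the common share. The CXCL1 start, at 0.64, was the region of the first side that exceeded the lowest of the second by most, so the sides overlapped. The third call was a CXCL5 region (chr4:74014458-74018993), with 1.03 ± 0.27 (SE) and adjusted p = 0.0186 in the authors' deposited table. It kept the call with adjustment over all regions (0.0463) and lost it after the common median was subtracted (0.490), and the other CXCL5 region had 0.79. The 4 adjusted CXCL6 regions ran from 0.14 to 0.46. The split at the gap was chosen after the values were seen and has no test.

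**Figure D3:**
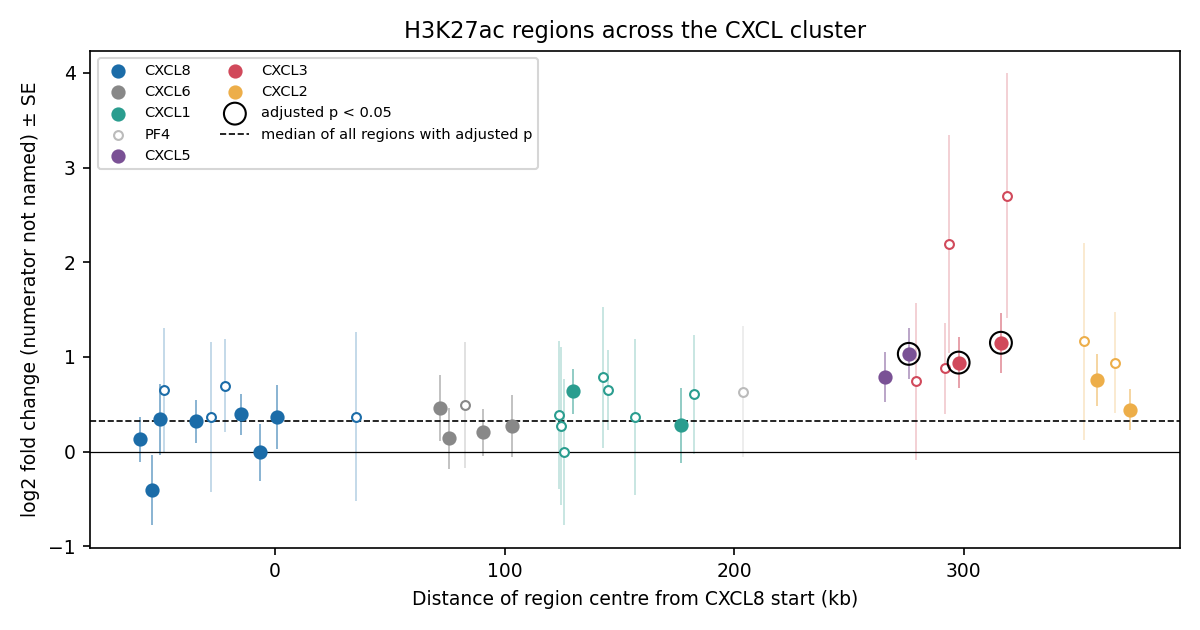
Log2 fold change ± SE from the authors' deposited table (y axis) of the 38 regions across the CXCL cluster against the distance of each region's centre from the CXCL8 start in kb (x axis), coloured by assigned gene; filled points have an adjusted p-value, rings mark the 3 calls and the dashed line is the median of 0.32 of all adjusted regions. The rings lie in the right-hand group of CXCL5, CXCL3 and CXCL2 regions, whose adjusted values run from 0.44 to 1.15, while the adjusted values left of the gap run from -0.40 to 0.64.

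The cytokine genes had no call. All single genes together had 0 calls among 23 adjusted regions, near the 1.67% called among all adjusted regions. The highest value among the single genes belonged to IL6. IL6 encodes a cytokine that acts through the transcription factor STAT3. A region 57652 bases before its start (chr7:22665537-22668232) had a log2 fold change of 1.03 ± 0.33 (SE), a ratio of 2.05, at a mean level of 31.9, with unadjusted p = 0.00169 and adjusted p = 0.0703 in the authors' deposited table. It stood at percentile 98.4 of the fold changes of all adjusted regions, and would have needed 1.10 for a call. The IL6 start region (chr7:22725534-22728435) had 0.74 ± 0.27 at a mean level of 49.0 and adjusted p = 0.134 in the authors' deposited table. The other 2 adjusted IL6 regions had 0.44 and 0.32, near the common median. Of the 4 adjusted IL6 regions, 2 had an unadjusted p-value under 0.05, a count too small to set beside the 18.4% of all adjusted regions.

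LIF, a cytokine that signals through a receptor subunit shared with IL6, carried the member region of highest total level. Of its 16 regions, 7 had an adjusted p-value, and these ran from 0.06 to 0.60 on the log2 scale in the authors' deposited table, with a median of 0.43. The start region (chr22:30240385-30259022) had 0.43 ± 0.21 (SE), with unadjusted p = 0.0389 and adjusted p = 0.248 in the authors' deposited table. A row of regions beyond the other end of the gene held 3 more of high level. Of these, the region at 45545 bases had a mean level of 158 and 0.43 ± 0.21, that at 32820 bases 199 and 0.36 ± 0.24, and that at 7000 bases 97.5 and 0.19 ± 0.24 in the authors' deposited table. The highest adjusted LIF value, 0.60 ± 0.26 at 19440 bases, had adjusted p = 0.202.

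IL1B encodes a cytokine that itself activates NF-kappaB. Its 7 regions were all positive, from 0.21 to 0.76 on the log2 scale in the authors' deposited table, and the 4 with an adjusted p-value ran from 0.42 to 0.51, a range smaller than their standard errors of 0.26 to 0.37. The region of highest level (chr2:112808165-112815435) lay 21469 bases away on the side of the gene's far end, with a mean level of 124, a log2 fold change of 0.48 ± 0.26 (SE) and adjusted p = 0.293 in the authors' deposited table. The region listed at 57 bases (chr2:112833254-112836847) covered the RefSeq start, reached 68 bases upstream of it and had a mean level of 39.6. Every adjusted IL1B region exceeded the common median of 0.32. An unadjusted p-value under 0.05 was found for 0 of the 7, a count too small to set beside the 8.99% of all regions.

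The feedback genes NFKBIA and TNFAIP3 had no call among 4 adjusted regions each, counts too small to set beside the 1.67% of all adjusted regions. The NFKBIA start region (chr14:35401645-35405493) had 0.42 ± 0.25 (SE) at a mean level of 74.3, with adjusted p = 0.340 in the authors' deposited table. The other 3 adjusted NFKBIA regions had 0.39, 0.38 and -0.10, the last at a region 16743 bases downstream of the start. TNFAIP3 had 14 regions, of which 10 had no adjusted p-value. Its start region (chr6:137866327-137868916) had 0.55 ± 0.31 at a mean level of 45.9, with adjusted p = 0.320 in the authors' deposited table. The highest adjusted TNFAIP3 value was 0.65 ± 0.34, at a region 12794 bases before the start. A TNFAIP3 region 37460 bases beyond the start, with a mean level of 16.2 and no adjusted p-value, had 0.92 ± 0.44 and unadjusted p = 0.0364 in the authors' deposited table. At the start regions of both genes, the 95% interval included 0 and also reached 0.92 (NFKBIA) and 1.16 (TNFAIP3). The TNFAIP3 start would have needed a log2 fold change of 1.05 for a call, more than the value at CXCL3.

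The other genes of the pathway were taken from 6 lists of 69 genes in all, of which 64 had a region. Over their 350 regions the authors' deposited table gave a median log2 fold change of 0.28, the same to 2 decimals as over all regions, and 7 of 175 adjusted regions were calls (4%, against 1.67% of all adjusted regions), all positive. Of the 7 calls, 6 lay beside chemokine and cytokine genes. The lists were chosen with earlier results of these data known, so these shares are descriptions and no independent support. Among other chemokines, 2 of 14 adjusted regions were calls and the median of adjusted regions was 0.44 in the authors' deposited table. Beside the CXCL5 region named above, the call was a region next to CCL20, a chemokine that attracts immature dendritic cells and some T cells (chr2:227815173-227821726). It had 1.23 ± 0.23 (SE), adjusted p = 0.000196 and rank 10 by p-value in the authors' deposited table, and also passed after the common median was subtracted (adjusted p-value 0.0492). The lowest adjusted value of that list was -0.19, at the CCL2 start.

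Among other cytokines, 4 of 19 adjusted regions were calls (21.1%, against 1.67% of all adjusted regions). This list too was chosen with earlier results known, so the share is a description only. The median over the adjusted regions of this list was 0.51 in the authors' deposited table. CSF2, which encodes a growth factor of granulocytes and macrophages, had 2 of the 4 calls, at its start (0.93 ± 0.27, SE) and 19387 bases away (1.04 ± 0.27). The other calls lay over the starts of IL11, a cytokine of the IL6 family, and of IL24. The authors' deposited table gave IL11 0.94 ± 0.26 and IL24 0.69 ± 0.20 at a mean level of 599.9. The lowest adjusted value of the list was -0.17, beside IL18. Of these 4 calls, only the CSF2 region away from the start kept an adjusted p-value under 0.05 over all regions of the table (0.0446), and 0 passed after the common median was subtracted.

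The signalling and target genes had 1 call in all, where 1.67% of all adjusted regions were calls. Counts of 0 or 1 in lists of this size lie near that share. Among NF-kappaB subunits and kinases 1 of 22 adjusted regions was a call of the authors' deposited table, at the start of NFKB2, which encodes a subunit of the noncanonical pathway (0.88 ± 0.26, SE, adjusted p-value 0.0481). It lost the call with adjustment over all regions (0.117) and after the common median was subtracted (0.782). The lowest value of the list was -0.23, beside IKBKB. The receptors and signal transducers had 0 calls among 51 adjusted regions, 7 with an unadjusted p-value under 0.05 and a median of 0.29, from -0.69 beside OSMR to 0.87 beside IL6ST in the authors' deposited table. The NF-kappaB inhibitors and feedback genes had 0 calls among 46, 11 with an unadjusted p-value under 0.05 and a median of 0.33, from -0.59 beside BIRC2 to 0.98 beside NFKBIZ. The NF-kappaB targets at the membrane and in prostaglandin synthesis had 0 calls among 23, 5 with an unadjusted p-value under 0.05 and a median of 0.28, from -0.42 beside VCAM1 to 0.87 beside PTGS2 in the authors' deposited table. At an unadjusted p-value under 0.05, these 3 lists had 13.7%, 23.9% and 21.7% of their adjusted regions, beside 18.4% of all adjusted regions; the other chemokines had 4 of 14 (28.6%), the other cytokines 7 of 19 (36.8%) and the NF-kappaB subunits and kinases 4 of 22 (18.2%). All these counts come from the authors' DESeq2 values, and differences between the lists were not tested.

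**Figure D4:**
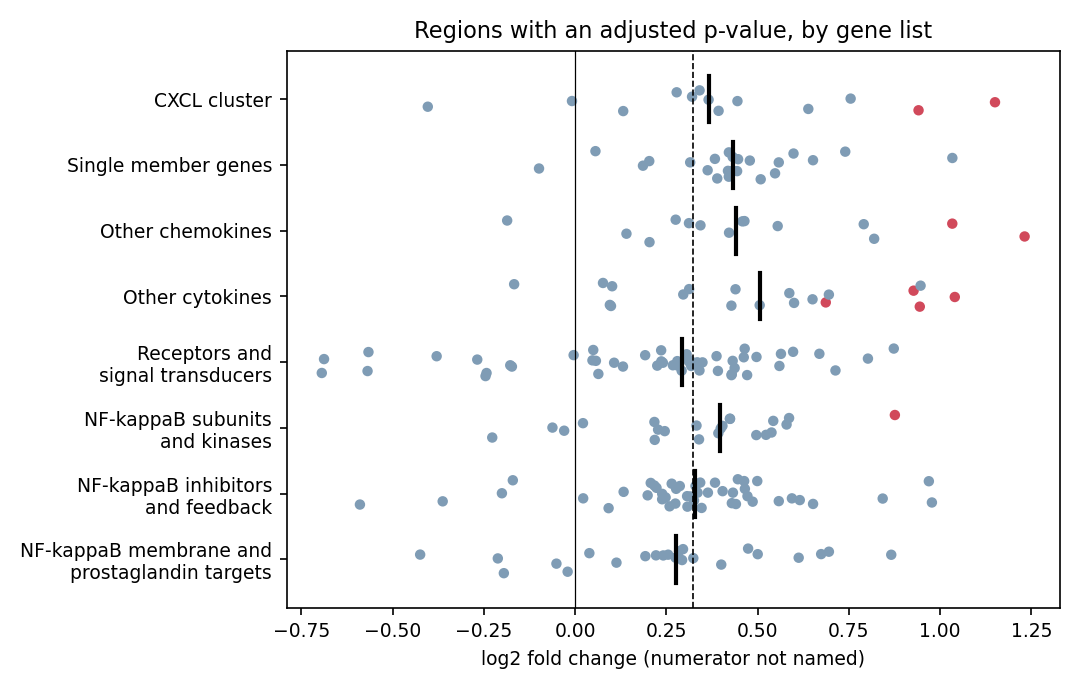
Log2 fold change from the authors' deposited table (x axis) of each region with an adjusted p-value, by gene list; red points have an adjusted p-value under 0.05, black bars are list medians and the dashed line is the median of 0.32 of all adjusted regions. Red points are seen among the CXCL cluster, other chemokines, other cytokines and, with 1 region, NF-kappaB subunits, and the list medians run from 0.28 to 0.51.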

How the data were processed

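H3K27ac was profiled by chromatin immunoprecipitation sequencing in A375 cells, with 2 vehicle and 2 octanoate libraries grouped by the treatment in the labels. Analysed was 1 deposited table, which holds a comparison made by the authors and has the column names of DESeq2. The submitters' processing notes list Trim Galore, cutadapt, FastQC, Bowtie2, Picard, MACS2, featureCounts, DESeq2, bedtools 2.29.1 and hg38, without roles. Per the file headers, the mean level is a normalized signal, and the log2 fold change comes with a standard error. The deposited score equalled their ratio, and the deposited p-value was that of a two-sided normal test of the score. Benjamini-Hochberg adjustment over the 36436 regions whose deposited adjusted value was under 1 gave the deposited values back, so the value 1 was read as not computed. The table held 0 columns of single libraries, so the planned count test across libraries was not run, and the authors' comparison was described.

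Lines repeating a region for another gene were merged. Calls are deposited adjusted p-values under 0.05, a threshold chosen here. In centring, the median log2 fold change of adjusted regions was subtracted, with the authors' standard errors kept. Then p-values were recomputed and adjusted over the same regions. The procedure was tested on simulated data with planted changes larger than the centred values of the adjusted member regions. Its power for changes as small as those of the members was not tested. Medians carry 95% order-statistic intervals and shares 95% Wilson intervals over regions, which cover no error between libraries. Promoters of RefSeq (GRCh38.p14) were matched by symbol, searched on both strands and aligned globally (Biopython 1.88). Other computation used pandas 2.3.3, numpy 2.4.6 and scipy 1.17.1. Named member regions were those at starts, of highest level, of extreme fold change or with an unadjusted p-value under 0.05; some other member regions are given for context. Genes outside the members were named where called, where highest or lowest in their list, or where they lie inside the CXCL cluster. The members and lists were chosen with earlier results of these data known. Alternatives tried were other thresholds, adjustments, level filters, centring, 1 region per gene and leaving out each gene.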

Additional observations from a re-analysis of the deposited data

How the results depend on the processing

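Of the 2 called member regions, 0 passed an adjusted p-value threshold of 0.01. The count was 1 with an absolute log2 fold change of at least 1, 0 with adjustment over all distinct regions and 0 after centring. After centring, 0.124% of all adjusted regions were calls, against 1.67% before. The share of all regions was not counted for the other settings named so far. These falls are thus not shown to be particular to the members. At an unadjusted p-value under 0.05 there were 12 member regions (14.6%), beside 8.99% of all regions. The median over member regions, 0.43, was 0.11 after centring and ran from 0.42 to 0.45 across the leave-one-out settings that each drop 1 gene. The median over the CXCL cluster regions, 0.53, was 0.37 for regions with an adjusted p-value and 0.20 after centring. The falls after centring follow from its construction, and for the other shifts the cause was not tested. Of 17 named regions with an adjusted p-value, only the 2 CXCL3 regions were calls, and both lost the call after centring. The others had no call to lose. Of them, 14 kept their direction and stayed uncalled, and the CXCL8 region at 29180 bases changed sign, to -0.0032. Adjustment over all distinct regions changed the call of the 2 CXCL3 regions alone.

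No paired analysis was possible because values per library are not in the table analysed here. Leaving out a replicate and other count tests were not run, for the same reason. Depth per library is unknown. The standard errors, with a median of 0.30 among adjusted member regions, limit what passes the threshold.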
